A study of Ovis aries with 40 samples.

Results

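Proximal lung of CF sheep at term was compared with proximal lung of WT sheep at term, with 2 libraries per genotype, 4 of the 40 libraries of the series. The libraries were taken by genotype, region and age as the labels give them, and all 20 proximal libraries, with 2 of each genotype at 65, 80, 100 and 120 days and at term, shared the estimate of spread. WT term animals were lambs of natural birth that were killed some time after it (the labels give day 147 and birth for both genotypes at term), and the time each had lived is not used here. CF animals (CFTR-/-) were made by somatic cell nuclear transfer from a single line of male fetal fibroblasts edited in exon 2 of *CFTR*, so they are clones of 1 line, and no cloned WT animals or other CF lines were among the libraries. Genotype, cloning, the donor line with its sex and the way the animals were recovered therefore cannot be told apart here. The 4 term libraries carry 4 different animal labels. The spread behind the p-values comes from all 20 proximal libraries, among which both WT libraries at 100 days carry 1 animal label, and WT replicate 2 at 65 days shares a label with CF replicate 2 at 100 days. RNA came from blocks of tissue that the labels call epithelial, but genes of mesenchyme and blood vessels were plainly present, with summed levels of 12373 to 24983 CPM (read counts scaled to library size) for 42 fibroblast and matrix genes and of 2255 to 4542 CPM for 17 general epithelial genes.

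Depth was alike in the groups, at 124896207 and 125713608 counted reads in WT replicates 1 and 2 and 118526165 and 117316905 in CF replicates 1 and 2. Of 24478 genes, 20344 were tested. The residual error had 10 degrees of freedom and the biological coefficient of variation was 0.407. Levels are given below as CPM after TMM scaling, always in the order WT replicate 1, WT replicate 2, CF replicate 1 and CF replicate 2, and fold changes are log2 of CF over WT with the standard error (SE) of the fit. A gene counted as a DEG at an adjusted p of 0.001 or less with a log2 fold change of at least 0.58 in size, and as called at an adjusted p of 0.05 or less. The median log2 fold change over all tested genes was −0.03 with TMM scaling, −0.01 with RLE factors and −0.25 when scaled by depth alone.

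At birth the lung changes from secreting fluid to absorbing it. Chloride channels such as CFTR and ANO1 secrete fluid, whereas the epithelial sodium channel and the Na,K-ATPase draw it out of the airspace. Around term, type 1 cells form the thin gas exchange surface, type 2 cells make surfactant, macrophages enter the airspaces and cell division slows. When oxygen is low, hypoxia-inducible factors (HIF) escape degradation by the EGLN prolyl hydroxylases and switch on glucose transport, glycolysis and their own feedback inhibitors, among them *EGLN3*.

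*CFTR* itself (chromosome 4, 50644000 to 50864925, minus strand, Oar_v4.0) stood at 9.58, 14.8, 3.89 and 5.14 CPM. Both CF libraries were below both WT libraries, and the log2 fold change was −1.43 ± 0.35 (SE; n = 2 and 2; adjusted p = 0.0282). Without WT replicate 2 the log2 fold change was −1.08 (adjusted p = 0.247), without CF replicate 1 it was −1.26 (adjusted p = 0.118), and without CF replicate 2 it was −1.67 (adjusted p = 0.0928). A count over the whole gene does not show whether the edited exon is read, so it tests the labels only weakly.

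CF and WT proximal lung differed most in genes of cell division, which were lower in CF, while DEGs higher in CF were fewer and of mixed function. There were 19 DEGs higher in CF (0.0934% of tested genes) and 50 lower (0.246%), and 23 of the 50 lower DEGs belonged to the lists of mitosis or DNA replication genes. At the looser limit 529 genes were called higher (2.6%) and 710 lower (3.49%), and 4055 genes (19.9%) had an unadjusted p below 0.05. In size, the log2 fold changes had a median of 2.85 among the higher DEGs and 2.77 among the lower DEGs, against 0.53 over all genes tested. A fit on the 4 term libraries alone called no DEG and 1 gene at an adjusted p of 0.05, *MARCO* (adjusted p = 0.0258), while 4246 genes (22.9% of 18553 tested) had an unadjusted p below 0.05, all 69 DEGs among them. DESeq2 on the 20 libraries called 383 DEGs higher and 497 lower. Leaving out a term library gave 0 and 17 DEGs (higher and lower) without WT replicate 1, 1 and 29 without WT replicate 2, 86 and 79 without CF replicate 1, and 2 and 2 without CF replicate 2.

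A gene was counted as shifted in a CF library when that library lay at least 0.58 in log2 CPM from the WT mean, on the side of the fitted change, and outside the range of the WT libraries. All 69 DEGs were shifted in both CF libraries. Of the 529 genes called higher, 479 were shifted in both, 1 in CF replicate 1 only and 49 in CF replicate 2 only. Of the 710 called lower, 685 were shifted in both, 4 in CF replicate 1 only and 21 in CF replicate 2 only. Among all tested genes with a higher fitted level in CF (9623), 2308 (24.0%) were shifted in both, 1762 (18.3%) in CF replicate 1 only and 2172 (22.6%) in CF replicate 2 only, and among the 10721 with a lower fitted level the numbers were 3082 (28.7%), 1648 (15.4%) and 2334 (21.8%). The calls use the same values as the shifts, so the shares among called genes are a description. Over the 13863 genes with a mean log2 CPM of at least 1, the root mean square difference was 0.762 between the CF libraries, 0.476 between the WT libraries and 0.841 between the group means.

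**Figure D1:**
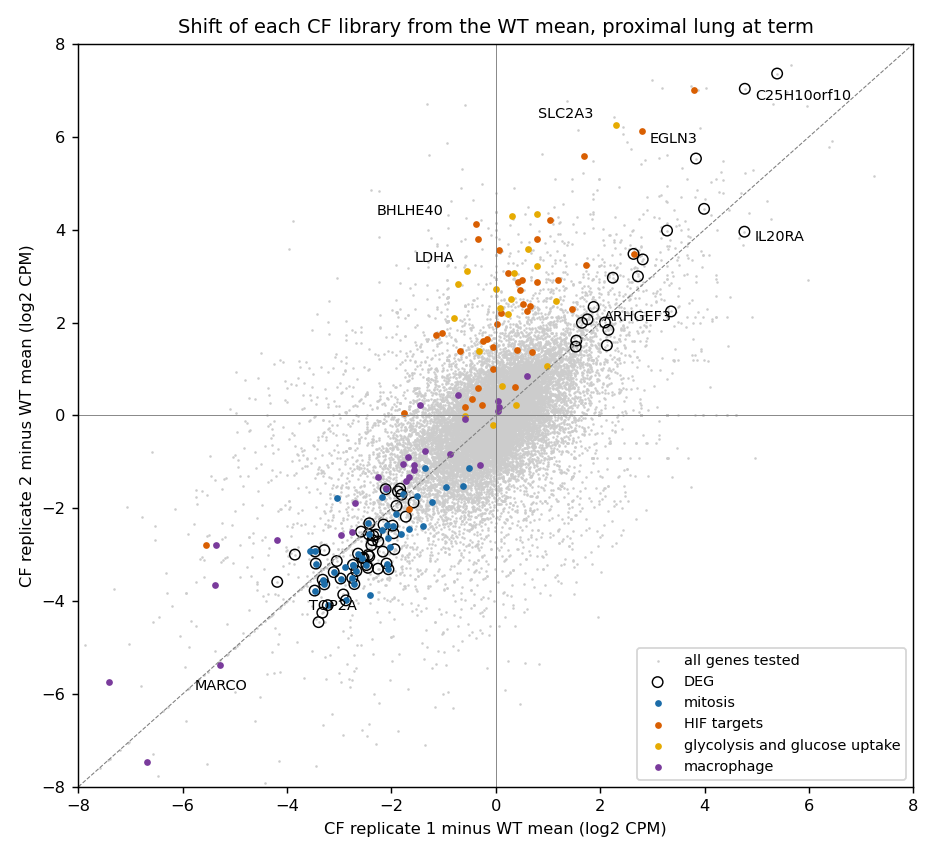
Each point is a tested gene, placed by its level in CF replicate 1 (horizontal) and CF replicate 2 (vertical) minus the mean of the WT libraries, in log2 CPM. Open circles are the 69 DEGs, which lie away from 0 on both axes, and colours mark 4 gene lists, of which mitosis genes lie below 0 on both axes, mostly below the dashed line of equal shift, and HIF targets and glycolysis genes mostly above it (16 tested genes fall outside the range drawn).

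The mitosis genes, which build the spindle, attach chromosomes to it and time the division, were lower in CF almost throughout. Of 43 mitosis genes tested, 42 were called lower, 21 of them DEGs, and none was called higher, with a median log2 fold change of −2.56. The median shift was −2.44 in CF replicate 1 and −2.91 in CF replicate 2, and 9 of the 43 genes were higher in CF replicate 2 than in CF replicate 1. The summed level of the list was 946 and 625 CPM in WT and 168 and 135 CPM in CF. *TOP2A*, the topoisomerase that untangles chromosomes before they part (chromosome 11, 40153826 to 40180113, minus strand), measured 90.2, 56.0, 7.27 and 5.70 CPM, a log2 fold change of −3.49 ± 0.38 (adjusted p = 2.53e-04). *KIF2C*, a kinesin that corrects faulty chromosome attachments, measured 10.8, 5.85, 0.709 and 0.574 CPM (log2 fold change −3.69 ± 0.33, adjusted p = 9.73e-05). *CCNB1*, the cyclin that starts mitosis, measured 21.3, 16.9, 2.89 and 1.52 CPM (log2 fold change −3.11 ± 0.26, adjusted p = 9.73e-05). In all 3 genes the groups did not overlap, and the gap between the groups was wider than that between the libraries of either group. They were chosen by fold change or p. Of all genes with a lower fitted level, 28.7% were shifted in both CF libraries, which also leaves no overlap. *KIF4A*, a chromosome-borne kinesin, gave −3.24, *CENPE*, a motor at the kinetochore, −3.44, and *CDC20*, which activates the anaphase-promoting complex, −3.32 (largest adjusted p = 1.35e-04). The proliferation marker *MKI67* measured 59.0, 46.3, 4.42 and 6.94 CPM (log2 fold change −3.21 ± 0.79, adjusted p = 0.0282). Leaving out any 1 term library gave 33 to 40 mitosis genes called lower.

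DNA replication genes were lower by less. Of 38 tested, 21 were called lower and none higher, with −1.2 as the median log2 fold change and median shifts of −1.01 and −1.40 in CF replicates 1 and 2. *RRM2*, the regulated subunit of the reductase that makes deoxynucleotides, measured 39.2, 28.6, 4.04 and 3.80 CPM (log2 fold change −3.11 ± 0.29, adjusted p = 9.73e-05). *TYMS*, which makes thymidylate, measured 22.5, 16.6, 6.18 and 2.69 CPM (−2.14 ± 0.31, adjusted p = 0.00153), but its exons overlap those of *ENOSF1*. *MCM2* of the replicative helicase measured 36.2, 27.2, 15.5 and 8.05 CPM (−1.43 ± 0.29, adjusted p = 0.0124). The clamp gene *PCNA* was not called, at 100.2, 65.9, 69.6 and 41.9 CPM (−0.57 ± 0.27, adjusted p = 0.254). The count of replication genes called lower ran from 8 without CF replicate 2 to 23 without CF replicate 1.

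**Figure D2:**
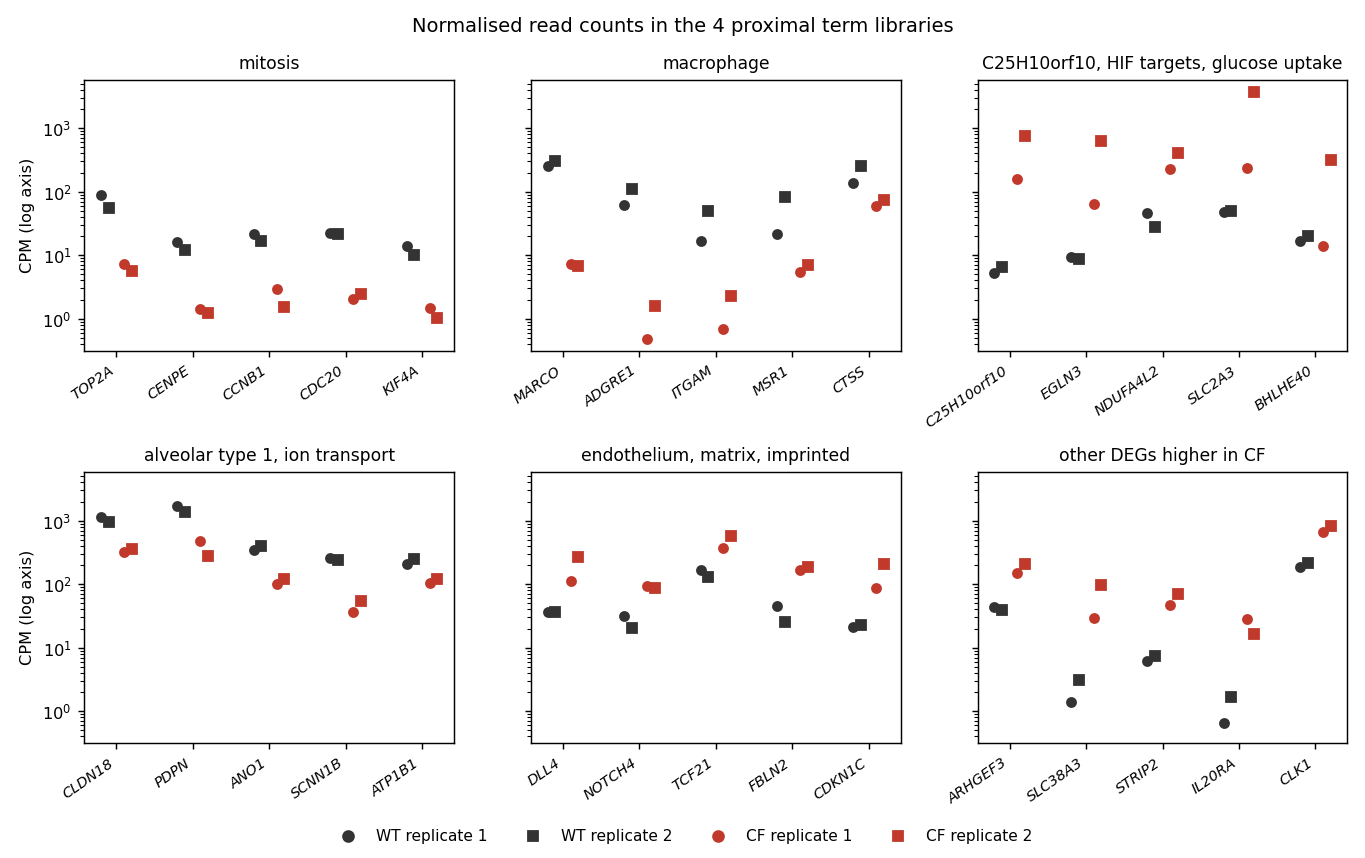
Level of selected genes in each of the 4 term libraries of proximal lung, in CPM on a log axis, with WT in black, CF in red, circles for replicate 1 and squares for replicate 2. *TOP2A* and *CCNB1* do not overlap between the genotypes, whereas *EGLN3* and *SLC2A3* are highest in CF replicate 2 by a wide margin.

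Several macrophage genes were lower in CF. Of 27 macrophage genes tested, 12 were called lower and none higher (median log2 fold change −1.55), with median shifts of −1.68 and −1.17 in CF replicates 1 and 2 and summed levels of 2200, 3301, 959 and 1308 CPM. *MARCO*, a scavenger receptor of alveolar macrophages (chromosome 2, 183240941 to 183279092, plus strand), measured 256, 306, 7.2 and 6.73 CPM, a log2 fold change of −5.33 ± 0.65 (adjusted p = 0.00135). *ADGRE1*, a macrophage surface receptor, measured 62.7, 112, 0.486 and 1.57 CPM (−6.41 ± 1.11, adjusted p = 0.013). The scavenger receptor *MSR1* measured 21.3, 82.0, 5.36 and 7.04 CPM (−3.06 ± 0.58, adjusted p = 0.00846), and the mannose receptor *MRC1* 38.9, 124, 10.3 and 12.1 CPM (−2.86 ± 0.60, adjusted p = 0.0139). WT replicate 2 was the highest of the 4 libraries in each of these genes, and in none of them did the groups overlap. They were chosen by p, and 28.7% of all genes with a lower fitted level were shifted in both CF libraries. The number called lower was 11 without WT replicate 1, 1 without WT replicate 2, 5 without CF replicate 1 and 3 without CF replicate 2. In bulk tissue, fewer cells of a type and less RNA per cell cannot be told apart.

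Other immune lists moved less, and over all tested genes 2.6% were called higher and 3.49% lower. Of 25 neutrophil and inflammatory genes DESeq2 called 2 higher and 3 lower. In the main fit 2 were called, both lower. These were *TNF* (3.74, 3.48, 0.282 and 0.706 CPM, log2 fold change −2.87, adjusted p = 0.0217) and *IL1A* (4.10, 18.4, 2.83 and 0.464 CPM, log2 fold change −2.77, adjusted p = 0.0476), which encode cytokines that start inflammation. The number called lower was 1 without WT replicate 1, 0 without WT replicate 2, 1 without CF replicate 1 and 0 without CF replicate 2. Of 31 interferon-induced genes 4 were called lower and none higher (median −0.88), including the RIG-I cofactor *TRIM25* at 114, 111, 56.8 and 39.2 CPM (−1.23 ± 0.26, adjusted p = 0.0154). Of the interferon-induced genes 0 were called lower without WT replicate 1, 1 without WT replicate 2, 8 without CF replicate 1 and 0 without CF replicate 2. No gene was called among 28 genes of T and NK cells or 12 of antigen presentation. Among 17 B cell genes 2 were called higher and 1 lower. Without WT replicate 1, WT replicate 2, CF replicate 1 or CF replicate 2 the number called higher was 1, 0, 2 and 1, and none was called lower in any of these fits. *JCHAIN*, the joining chain of secreted antibodies, was shifted in CF replicate 2 only.

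A part of the HIF target and glycolysis genes was called higher in CF, with most of the difference in CF replicate 2. Of 40 HIF targets tested 16 were called higher and 2 lower, and the median log2 fold change was 1.70, but the median shift was 0.30 in CF replicate 1 and 2.27 in CF replicate 2, and 39 of the 40 genes were higher in CF replicate 2 than in CF replicate 1. Their summed level was 2111, 1967, 2458 and 10966 CPM. Of 20 genes of glycolysis and glucose uptake 7 were called higher and none lower (median 1.85, with median shifts of 0.27 and 2.49), and the summed level was 2415, 2696, 3219 and 20392 CPM. None of 8 genes of the HIF pathway itself was called, and *HIF1A* measured 102, 100.2, 68.3 and 242 CPM (0.62 ± 0.51, adjusted p = 0.552).

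A group of HIF targets and glucose transporters was higher in both CF animals, by different amounts. *NDUFA4L2*, a mitochondrial protein gene that HIF induces, was a DEG at 46.2, 28.2, 225 and 403 CPM (3.08 ± 0.40, adjusted p = 8.17e-04). *EGLN3*, the oxygen-sensing hydroxylase (chromosome 18, 43235038 to 43264406, minus strand), measured 9.38, 8.83, 63.6 and 635 CPM, a log2 fold change of 5.26 ± 0.85 (adjusted p = 0.00325). *SLC2A3*, a high-affinity glucose transporter (chromosome 3, 205973342 to 206057740, minus strand), measured 47.9, 49.3, 239.8 and 3712 CPM (5.35 ± 0.88, adjusted p = 0.00356). Both genes were above WT in CF replicate 1 and far higher again in CF replicate 2. *DDIT4*, an inhibitor of mTOR signalling, measured 52.8, 44.3, 156 and 2332 CPM (4.68 ± 0.81, adjusted p = 0.00495), and the secreted hormone gene *STC1* measured 44.8, 36.7, 135 and 383 CPM (2.67 ± 0.40, adjusted p = 0.00205). *ANKRD37* measured 0.863, 1.87, 17.7 and 164 CPM (6.06 ± 0.96, adjusted p = 0.00303), and its exons overlap those of *UFSP2*. Among the called members that were lower was *CA12*, a carbonic anhydrase gene, at 0.689, 17.5, 0.068 and 0.497 CPM (−5.01 ± 1.33, adjusted p = 0.0405), which was by far the highest in WT replicate 2.

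Of the 7 called glycolysis and glucose uptake genes, 4 were shifted in both CF libraries and 3 in CF replicate 2 only. Besides *SLC2A3*, the former were the glucose transporter *SLC2A1* at 14.4, 20.3, 29.7 and 348 CPM (3.44 ± 0.73, adjusted p = 0.0146), the isomerase *TPI1* at 113, 115, 196 and 1057 CPM (2.46 ± 0.57, adjusted p = 0.021) and the dehydrogenase *GAPDH* at 409.6, 477, 676 and 5276 CPM (2.75 ± 0.67, adjusted p = 0.0277). The other 3 lay near the WT level in CF replicate 1. *ALDOA*, the aldolase gene, measured 252, 338, 373 and 2429.7 CPM (2.25 ± 0.59, adjusted p = 0.037), *PFKL*, a phosphofructokinase gene, 53.0, 52.0, 64.5 and 298 CPM (1.79 ± 0.45, adjusted p = 0.0328), and *SLC16A3*, a lactate exporter gene, 8.18, 6.55, 9.12 and 144 CPM (3.38 ± 0.82, adjusted p = 0.0264). These and *KDM3A*, *MXI1*, *P4HA1* and *AK4* are the 7 called HIF or glycolysis genes that were shifted in CF replicate 2 only. *LDHA*, lactate dehydrogenase, was not called at 222, 343, 189 and 2368 CPM (2.18 ± 0.74, adjusted p = 0.102). The number of HIF targets called higher was 6 without WT replicate 1, 3 without WT replicate 2, 25 without CF replicate 1 and 5 without CF replicate 2, and for glycolysis it was 1, 0, 14 and 1. The HIF targets called lower numbered 1, 1, 1 and 0 in the same fits. A difference between the CF animals cannot be tested with 1 library each.

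Genes that move ions and water were lower in CF for several members. Of 29 tested, 5 were called lower and none higher, with a median of −0.56. DESeq2 called 6 lower and 3 higher, and the likelihood ratio test 6 lower and 1 higher. The fit on the 4 term libraries alone called 0 in either direction. The calcium-activated chloride channel *ANO1* (chromosome 21, 46438353 to 46544132, plus strand) was a DEG at 346, 395, 101 and 119 CPM (−1.76 ± 0.20, adjusted p = 3.63e-04). *ATP1B1*, the beta subunit of the Na,K-ATPase, measured 205, 246, 104 and 119 CPM (−1.01 ± 0.22, adjusted p = 0.0165), and its exons overlap those of *NME7*. *SCNN1B*, the beta subunit of the epithelial sodium channel, measured 257, 242, 37.1 and 54.5 CPM (−2.45 ± 0.46, adjusted p = 0.0077). *SCNN1A* (60.3, 96.0, 25 and 43.1 CPM) and *SCNN1G* (60.6, 68.8, 12 and 31.3 CPM), the other subunits, were below WT in both CF libraries without being called (adjusted p = 0.373 and 0.226). *SGK1*, the kinase that keeps the sodium channel at the cell surface, measured 181, 107, 40.3 and 8.33 CPM (−2.57 ± 0.57, adjusted p = 0.0171).

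Of 14 genes of alveolar type 1 cells 4 were called lower and none higher (median −0.93, with median shifts of −0.78 and −1.11), and leaving out 1 term library gave 1 to 4, the fewest without CF replicate 2. *CLDN18*, a claudin of alveolar tight junctions, measured 1133, 943, 325 and 365 CPM (−1.59, adjusted p = 0.00175). *PDPN*, podoplanin, measured 1724, 1391, 487 and 279 CPM (−2.02, adjusted p = 0.0197), and *RTKN2* and *SEMA3E* were also called lower. *AGER*, a widely used marker of these cells, was not called at 2100.2, 1916, 799 and 624 CPM (−1.5, adjusted p = 0.118). No gene was called among 19 surfactant and type 2 genes (median −0.06), 29 motile cilia genes (median −0.56) or 17 general epithelial genes (median −0.14). With DESeq2, 1 surfactant and type 2 gene and 1 motile cilia gene were called lower. *SFTPC*, surfactant protein C, measured 10336, 13238.5, 18468 and 4179.8 CPM, so CF replicate 1 was the highest and CF replicate 2 the lowest of the 4 libraries (−0.06 ± 0.71, adjusted p = 0.982). The summed level of the general epithelial genes was 3639, 3682, 2255 and 4542 CPM, and its part in the differences of epithelial genes was not tested. Of 14 airway secretory genes (median −1.70) 1 was called, which without WT replicate 2 was 0. It was *LYZ*, lysozyme, at 25.3, 144, 2.40 and 8.97 CPM (−3.89 ± 0.75, adjusted p = 0.00864), a gene that macrophages also use.

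Endothelial and mesenchymal genes were higher in CF for a part of each list. Of 33 endothelial genes 7 were called higher and none lower (median 0.63). *DLL4*, a Notch ligand of arterial and sprouting cells, measured 36.9, 37.1, 111 and 273 CPM (2.38, adjusted p = 0.0019), *NOTCH4*, a Notch receptor of endothelium, 31.9, 20.6, 92.5 and 88.6 CPM (1.79, adjusted p = 0.0065), and *PLVAP*, which forms diaphragms of vessel pores, 42.1, 37.9, 79.9 and 328 CPM (2.35, adjusted p = 0.00911). *LYVE1*, a hyaluronan receptor of lymphatic vessels and some macrophages, was called at 119, 95.7, 157 and 1091 CPM, with CF replicate 1 just above both WT libraries and under the shift limit. Of 42 fibroblast and matrix genes 10 were called higher and none lower (median 0.57), all 10 of them shifted in both CF animals. They include *TCF21*, a transcription factor of lung mesenchyme, at 166, 129, 373 and 581 CPM (1.69, adjusted p = 0.00633), *COL15A1*, a basement membrane collagen gene, at 162, 133, 451 and 422 CPM (1.56, adjusted p = 0.00709), and *FBLN2*, an elastic fibre protein gene, at 45.2, 25.7, 167 and 183 CPM (2.31, adjusted p = 0.0107). When 1 term library was left out, 1 to 8 endothelial genes and 0 to 8 fibroblast and matrix genes were called higher, the fewest without WT replicate 2. The summed level of the endothelial genes was 3909, 2699.9, 5036 and 5693 CPM, and that of the fibroblast and matrix genes 18782, 12373, 24983 and 18719 CPM.

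Smooth muscle genes were mixed. Of 19 tested, *CNN1*, *ACTG2* and *MYH11*, which encode parts of the contractile apparatus, were called lower and *SMTN*, smoothelin, higher. *CNN1*, calponin, measured 36.4, 25.4, 9.56 and 3.83 CPM (−2.21 ± 0.44, adjusted p = 0.0104), and *ACTG2*, smooth muscle gamma actin, 48.9, 41.8, 15.9 and 5.72 CPM (−2.06 ± 0.44, adjusted p = 0.0146). The number called lower was 0 without WT replicate 1, 1 without WT replicate 2, 3 without CF replicate 1 and 0 without CF replicate 2, and *SMTN* was called only in the fit without WT replicate 1 among these 4.

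Of 23 imprinted genes, which are read from 1 parental copy, 5 were called higher and 1 lower (median 0.42). *GTL2*, the maternally expressed RNA of the *DLK1* region, measured 38.7, 31.4, 155 and 285 CPM (2.65, adjusted p = 0.00352). *DLK1*, the paternally expressed gene of that region, measured 5.63, 4.72, 46.4 and 73.2 CPM (3.53, adjusted p = 0.018), and *CDKN1C*, a maternally expressed inhibitor of the cell cycle, 21.2, 22.8, 88.3 and 207 CPM (2.75, adjusted p = 0.0182). For *DIRAS3* the levels were 3.89, 2.56, 0.253 and 0.243 CPM (−3.69, adjusted p = 0.0145). *IGF2*, a fetal growth factor, measured 198, 126, 743 and 1722 CPM without passing the limit (2.93, adjusted p = 0.0867). The number of imprinted genes called higher was 1 without WT replicate 1, 0 without WT replicate 2, 4 without CF replicate 1 and 1 without CF replicate 2, and *DIRAS3* was called in the fit without WT replicate 2 only. Called higher genes among the other lists include *TBX5*, a transcription factor of lung mesenchyme, at 61.7, 37.9, 116 and 114 CPM (1.2, adjusted p = 0.0145), and *HSPA1A*, an inducible heat shock protein gene with a near-identical neighbour, at 355, 813, 4486 and 2921 CPM (2.66, adjusted p = 0.0188).

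In the remaining lists few genes were called. Over all tested genes 2.6% were called higher and 3.49% lower, and counts of 1 or 2 in short lists are hard to tell from that share. They were 1 lower of 12 airway basal genes and 0 of 11 neuroendocrine genes. Of 34 genes of fetal growth and lung progenitors 3 were higher, of 16 of the IGF system 2 higher, of 21 of heat shock and the unfolded protein response 2 higher and 1 lower, and of 22 immediate early genes 1 higher. Of 19 glucocorticoid response genes 2 were lower, among them *SGK1*. Of 18 cartilage genes 1 was higher and 1 lower, of 18 erythroid genes 1 higher, of 14 skeletal muscle genes 1 higher and of 8 adipocyte genes 1 lower. These small counts depended on single libraries. Without WT replicate 2 none of these lists had a called gene except the glucocorticoid response list, which had 2. Without CF replicate 2 the counts were 1 for that list, 1 for the IGF system and 0 for the rest, and without WT replicate 1 they were 2 for fetal growth and 0 for the IGF system, heat shock, the immediate early and skeletal muscle genes and the higher cartilage gene. Without CF replicate 1 they were 4 higher and 2 lower for fetal growth, 3 for the IGF system, 3 for the glucocorticoid response and 2 higher and 1 lower for the immediate early genes, and 0 for the adipocyte genes. The airway basal gene was called in none of these 4 fits, nor with RLE factors. None of 8 mesothelium genes was called, with median shifts of −2.77 in CF replicate 1 and 2.77 in CF replicate 2.

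**Figure D3:**
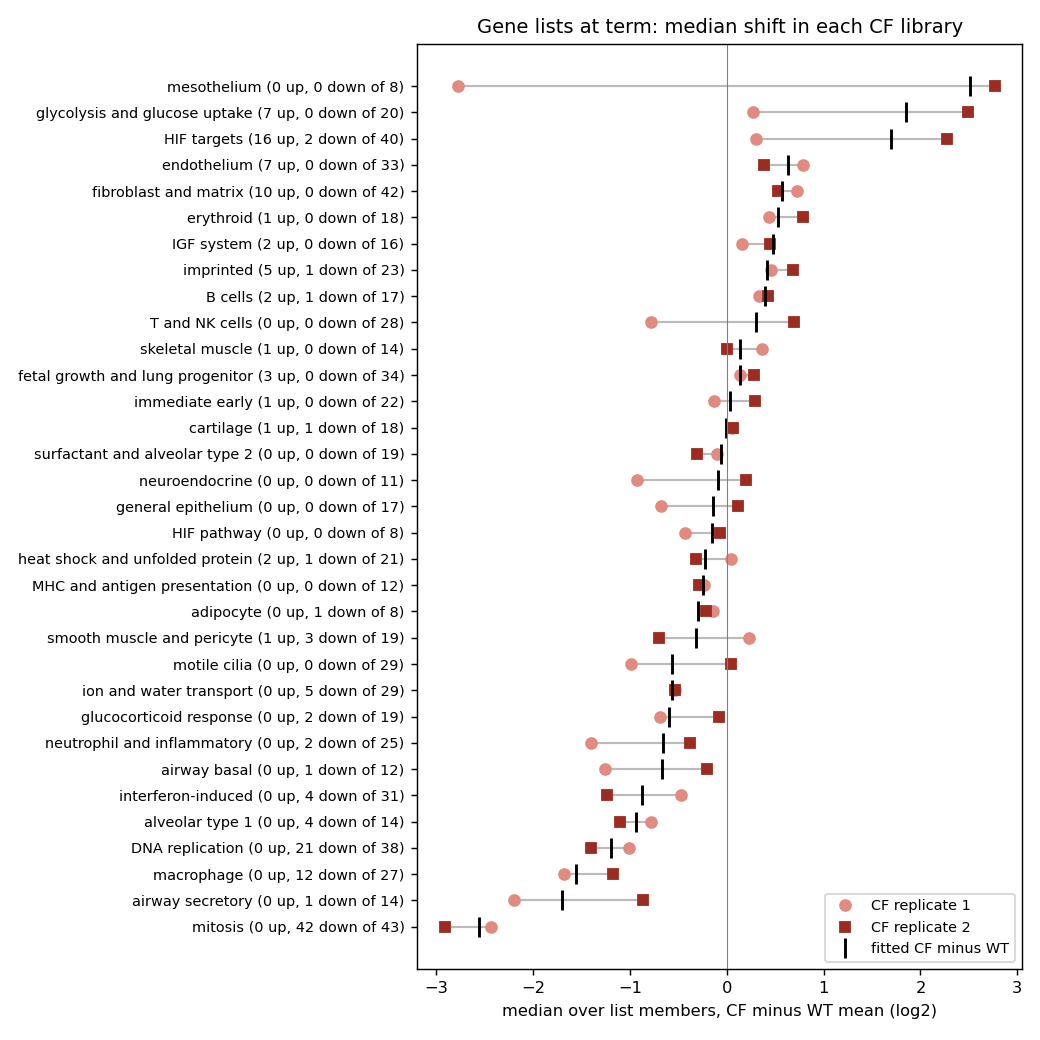
Median shift from the WT mean in CF replicate 1 and CF replicate 2 for each gene list, in log2 CPM, with a bar for the median fitted fold change and the numbers of genes called higher and lower and tested. Mitosis and replication genes lie near each other below 0 in both CF libraries, while HIF targets and glycolysis genes lie near 0 in CF replicate 1 and above 2 in CF replicate 2.

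Among the DEGs outside these lists, the largest log2 fold changes above 0 were those of a pair of overlapping genes. *C25H10orf10* (chromosome 25, 43973029 to 43974695, plus strand), also called *DEPP1*, a gene induced by FOXO factors, measured 5.24, 6.51, 159.8 and 767 CPM (6.30 ± 0.67, adjusted p = 2.23e-04). Its exon overlaps that of *LOC105605070* on the other strand, which measured 0.750, 1.19, 39.9 and 157 CPM (6.66 ± 0.72, adjusted p = 2.29e-04). Reads of the pair may not be separable, since the strand setting of the counting is not given in the sources used here. *SLC38A3*, a glutamine transporter gene, measured 1.38, 3.07, 29.4 and 95.5 CPM (4.81 ± 0.62, adjusted p = 7.13e-04), and *IL20RA*, a receptor for cytokines of the IL-20 family, 0.663, 1.66, 28.7 and 16.4 CPM (4.28 ± 0.49, adjusted p = 3.48e-04). *ARHGEF3*, a guanine nucleotide exchange factor gene, measured 44.5, 38.6, 152 and 209 CPM (2.12 ± 0.20, adjusted p = 9.73e-05), and the splicing kinase gene *CLK1* 186, 213, 672 and 834 CPM (1.92 ± 0.24, adjusted p = 6.21e-04). From 120 days to term the mean of *C25H10orf10* went from 73.5 to 5.87 CPM in WT and from 86.6 to 463 CPM in CF. For *SLC38A3* it went from 4.65 to 2.22 CPM in WT and from 7.04 to 62.5 CPM in CF. That of *IL20RA* went from 13.2 to 1.16 CPM in WT and from 19.8 to 22.5 CPM in CF. The higher level in CF at term thus includes a fall in WT. Some lower DEGs were not of cell division and were picked after their values were seen. *CPT1A*, which admits fatty acids to mitochondria, measured 224, 245, 39.1 and 41.3 CPM (−2.54 ± 0.24, adjusted p = 9.73e-05), *LPIN2*, a phosphatidate phosphatase gene, 198, 243, 40.9 and 43.9 CPM (−2.38 ± 0.31, adjusted p = 7.13e-04), *ALAS1*, the first enzyme of haem synthesis, 591, 449.9, 138 and 133 CPM (−1.94 ± 0.25, adjusted p = 7.13e-04), and *GJA1*, a gap junction connexin, 244, 212, 76.3 and 61.9 CPM (−1.72 ± 0.21, adjusted p = 4.19e-04). In these 4 genes the CF libraries lay close together and far below both WT libraries.

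Called genes that passed the shift limit in a single CF library were few (75), and most did so in CF replicate 2. In 73 of the 75 the other CF library also lay outside the WT range on the same side, by amounts below 0.58 from the WT mean, while the library that passed was many times the WT level in some of them, such as *SLC16A3*. The 5 that passed it in CF replicate 1 only were *SERPINE2*, which was higher, and *TARS*, *LASP1*, *FBXO18* and *FBXW2*, which were lower. A library was also said to stand alone when it lay at least 2 in log2 CPM beyond the other 3, which lay within 1 of each other. Among the 13863 genes with a mean log2 CPM of at least 1, CF replicate 2 stood alone above in 55 genes and below in 25, CF replicate 1 above in 1 and below in 21, WT replicate 2 above in 4 and below in 4, and WT replicate 1 above in 1. *BHLHE40*, a repressor of the clock and of hypoxic cells, measured 16.7, 19.8, 13.9 and 316 CPM, and *SDS*, serine dehydratase, 77.9, 49.6, 6.53 and 80.1 CPM. The distal libraries of the same animals measured 15, 13.5, 12.7 and 217 CPM for *BHLHE40* and 54.4, 66.5, 8.19 and 109 CPM for *SDS*, so in each gene the same animal stood apart in both regions. Neither gene was called (adjusted p = 0.119 and 0.787).

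The difference at term was then set against the mean CF minus WT difference at 65, 80, 100 and 120 days, in the same fit. Beyond the earlier difference there were 10 DEGs with a higher term difference (0.0492%) and 35 with a lower one (0.172%), and 329 (1.62%) and 600 (2.95%) genes at an adjusted p of 0.05. Without WT replicate 1 there was no DEG of this kind in either direction, and without CF replicate 2 there were 1 and 2. Of the 43 mitosis genes 37 were called lower beyond the earlier difference, of the replication genes 17, and of the HIF targets 13 were called higher and 1 lower. Several other lists had fewer calls beyond the earlier difference than at term itself. Of the macrophage genes 5 were called lower (12 at term) and of the interferon-induced genes 0 (4 at term). Of the glycolysis genes 3 were called higher (7 at term), of the fibroblast and matrix genes 2 (10 at term) and of the imprinted genes 0 (5 at term). The ion and water transport genes had 4 lower (5 at term) and the alveolar type 1 genes 2 lower (4 at term). Fewer calls did not always go with a smaller difference. The median log2 difference at term and beyond the earlier one was −1.55 and −1.13 for macrophage and −0.88 and −0.76 for interferon-induced genes. It was 1.85 and 1.49 for glycolysis, 0.57 and 0.24 for fibroblast and matrix, and 0.42 and 0.39 for imprinted genes. For ion and water transport it was −0.56 and −1.01, and for alveolar type 1 genes −0.93 and −0.91. The endothelial genes did not lose calls, with 7 higher and 1 lower (7 and 0 at term). The smooth muscle genes had 7 lower (3 at term). Their median difference was 1.16, 0.71, 0.27 and 0.90 at 65, 80, 100 and 120 days and −0.32 at term. Their lower calls beyond the earlier difference thus include a higher CF level before term. Before term the median difference of the mitosis genes was −0.29, −0.36, 0.08 and 0.18 at 65, 80, 100 and 120 days. *TOP2A* measured 412 and 402 CPM in WT and 289 and 312 CPM in CF at 65 days. At 80 days it measured 369 and 369 CPM in WT and 210 and 268 CPM in CF. At 120 days the levels were 93.6 and 86.4 CPM in WT and 131 and 49.98 CPM in CF. From 120 days to term its WT mean fell from 90.0 to 73.1 CPM. Over the same interval the WT mean rose from 12.8 to 22.0 CPM for *CDC20* and from 5.62 to 8.31 CPM for *KIF2C*. The CF mean fell from 90.3 to 6.49, 23.0 to 2.21 and 8.64 to 0.642 CPM in these 3 genes. For *SLC2A3* the term difference exceeded the earlier one by 5.22. Earlier WT libraries were shallower than the earlier CF libraries. The excess over the earlier difference is not given for *MARCO* and *ADGRE1*, which were at most 0.108 and 0.111 CPM in any earlier library.

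**Figure D4:**
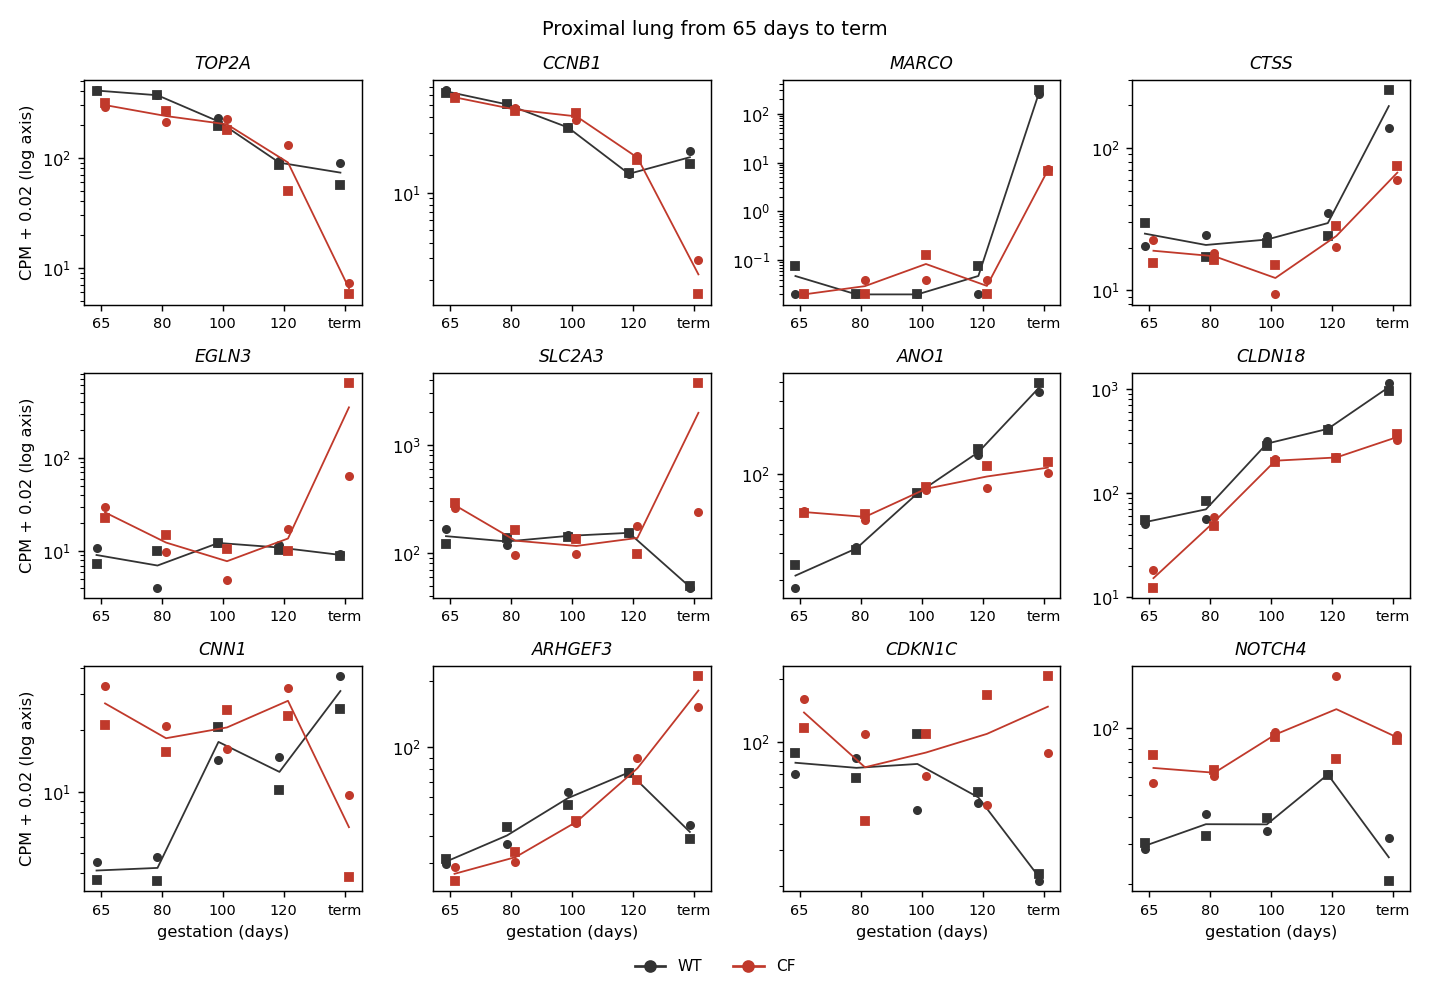
Level of selected genes in the proximal libraries from 65 days to term, in CPM on a log axis with a small offset, with WT in black, CF in red, circles and squares for replicates 1 and 2 and lines through the means. *TOP2A* falls with age in both genotypes, with CF below WT at 65 and 80 days, overlap at 100 and 120 days and a wide gap at term. *MARCO* is near 0 before term and much higher in the WT than in the CF term libraries.

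Distal lung of the same 4 animals was used to ask whether the term difference depended on the region, with the animal as a block. The test is signed, and asks whether CF minus WT is more positive or more negative in proximal than in distal lung. It was more positive in proximal lung for 2 genes at the DEG limits, *PRG4* and *LRRN4* (0.0105% of 19123 tested), and more negative for none, and at an adjusted p of 0.05 the counts were 4 (0.0209%) and 0. The unadjusted p was under 0.05 in 822 genes (4.30%), and a fit of all 40 libraries without the animal block gave no DEG. The 4 genes are *PRG4*, *LRRN4*, *BNC1* and *PI16*. *PRG4*, lubricin, measured 0.959, 0.570, 1.54 and 4.79 CPM in proximal lung and 9.25, 16.8, 0.523 and 0.858 CPM in distal lung, so CF lay below WT in distal lung and above it in proximal lung. *LRRN4* measured 0.0349, 0.0168, 0 and 0.883 CPM in proximal and 2.02, 2.02, 0 and 0 CPM in distal lung, and *BNC1* 0.0698, 0.134, 0 and 1.24 CPM and 0.947, 1.92, 0 and 0.136 CPM. *LRRN4* and *BNC1* mark mesothelium, the covering of the lung, and both had more reads in distal than in proximal lung of WT animals. *PI16*, a gene of adventitial fibroblasts, measured 12.9, 11.3, 40.2 and 30.9 CPM in proximal and 27.1, 25.2, 24.9 and 21.0 CPM in distal lung, so CF was higher in proximal lung and slightly lower in distal lung (difference of the log2 fold changes 1.78 ± 0.23, adjusted p = 0.00553).

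Values of 4 genes in the distal libraries of these animals, picked after they were seen, were as follows. *TOP2A* measured 80.7, 28.6, 6.27 and 6.69 CPM there, *ANO1* 309, 289.6, 103 and 81.7 CPM, *EGLN3* 8.24, 10.2, 59.2 and 607 CPM, and *MARCO* 168, 426, 11.7 and 10.9 CPM. The genotypes did not overlap in distal lung in any of the 4 genes. The share of all genes without overlap in distal lung was not computed, so this describes the picked genes only. The distal libraries come from the same lungs and are no further replicates.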

How the data were processed

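RNA of 4 proximal lung libraries at term (2 WT, 2 CF) was analysed with the other 16 proximal libraries. Paired reads had been mapped by the authors with STAR on the sheep assembly Oar_v4.0, and featureCounts 1.6.3 gave the deposited counts per gene, which are raw and unpooled. The sources used here differ on the STAR version. Between 69.2% and 76.1% of counts from 1 to 20 in the 4 libraries were even numbers, so mates of a pair may each have been counted. The authors' table of their own comparison was not used. No column of values was left unmapped.

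Counts were tested in R 4.3.3 with edgeR 4.0.16 (filterByExpr with a count minimum of 10 and total of 15, TMM, glmQLFit in its legacy form, glmQLFTest, 1 mean per genotype and time point) with Benjamini-Hochberg adjustment. The region comparison used the 8 term libraries with the animal as a block. CPM were computed from the counts with TMM factors, and shifts used log2 CPM (prior count 0.5). The steps were tested on simulated data of 20344 genes, with 100 genes changed 4-fold and 100 changed 2-fold in the term comparison. At an adjusted p of 0.05, 49% of the 4-fold and 2% of the 2-fold changes were called, and none at 0.001. Fewer genes changed there than were called in the data. The adjusted p depends on that number, so these rates do not carry over to the data. DESeq2 1.42.0, the likelihood ratio test, glmTreat, other limits, a replicate block and each library left out were alternatives.

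Gene-wise deviations of the proximal and distal libraries of the same animals correlated at r = 0.65 in WT and 0.87 in CF (across 13863 genes, which are not independent). The comparison and the 33 gene lists were chosen with earlier results of these data known. Genes named were the 12 largest rises and falls among DEGs shifted in both CF libraries, the 4 genes standing farthest apart in each library and the 5 largest of each direction in each difference test, all at a mean log2 CPM of at least 1 over the 4 libraries and without LOC or TRNA symbols, and, at any level, up to 6 members of each list by adjusted p and genes the study names. That gave 243 genes, of which the informative ones are given, and *ALDOA*, *LDHA*, *CA12*, *MCM2*, *MKI67*, *PCNA*, *SCNN1G*, *SFTPC*, *PRG4*, *CPT1A*, *LPIN2*, *ALAS1*, *GJA1*, *LOC105605070* and the genes shifted in a single CF library were picked after their values were seen. No sequence is shown. Some results are not reported here.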

Additional observations from a re-analysis of the deposited data

Results flagged for a closer look

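The term difference of CF and WT departed from the mean earlier difference, by the test of that departure, in 10 DEGs upward and 35 downward. Among the genes named by the rule, which leaves out symbols that begin with LOC (*LOC105605070* gave 6.31), the largest departures upward on the log2 scale were those of *SNCG* (6.64), *C25H10orf10* (6.09), *ANKRD37* (6.07), *TPSB2* (5.42) and *SLC2A3* (5.22), and downward those of *ZG16* (−6.01), *GPNMB* (−5.47), *TSKS* (−5.25), *LYZ* (−4.91) and *BCL2L15* (−4.64). In *GPNMB* and *TSKS* the term difference rests on WT replicate 2, which stands alone in both. Without that library the term log2 fold changes were 0.20 and 0.046. Their departures also include an earlier difference, since the CF mean was above the WT mean at each earlier age. At 120 days the means in WT and CF were 0.455 and 0.854 CPM for *GPNMB*, and 0.659 and 5.86 CPM for *TSKS*. These genes were at most 0.498 and 0.765 CPM in the earlier WT libraries. *ZG16* was at most 1.18 and *LYZ* at most 1.21 CPM there, so the size of these departures rests on few earlier reads. By the test of the regions, CF minus WT at term was more positive in proximal than in distal lung in 2 DEGs, *PRG4* and *LRRN4*, in which CF was below WT in distal lung, and for *PI16*, called at an adjusted p of 0.05, proximal minus distal was 1.78.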

How the results depend on the processing

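Counts of DEGs (higher and lower in CF) depended on the test. They were 383 and 497 with DESeq2, 202 and 287 with the likelihood ratio test, 78 lower with the bias-adjusted quasi-likelihood, 7 and 22 with glmTreat, 131 and 209 at an adjusted p limit of 0.01, 529 and 708 at a limit of 0.05 with the fold limit, and 0 and 0 in the 4 term libraries alone. With the replicate number as a block they were 12 and 40, beyond the earlier difference 9 and 28. WT and CF animals share only a number (r = 0.24 between their deviations). Leaving out 1 term library gave 0 to 86 higher and 2 to 79 lower DEGs. Beyond the earlier difference it gave 0 to 56 higher and 0 to 53 lower, and DESeq2 gave 258 and 413. DEGs with CF minus WT more positive in proximal lung went from 2 to 0 without the animal block and to 4 at a limit of 0.05. Every setting except the 4-library fit kept all 69 DEGs at an adjusted p of 0.05, and none of them changed sign.

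*CFTR* lost its call in the 4-library fit (−1.40, adjusted p = 0.128) and with glmTreat (−1.43, adjusted p = 0.117), and ranged from −1.71 to −1.08 with 1 library left out. A shift limit of 1 raised the called genes not shifted in both from 75 to 426. Counts of list members also moved with the test, given here for the main fit, DESeq2 and glmTreat. Called higher were 16, 22 and 9 HIF targets, 7, 12 and 2 glycolysis genes, and 10, 11 and 3 fibroblast and matrix genes. Called lower were 42, 43 and 36 mitosis genes, 12, 14 and 5 macrophage genes, and 4, 9 and 0 interferon-induced genes. With 1 library left out in turn, some log2 fold changes crossed 0, lying from −0.41 to 4.10 for *BHLHE40*, −0.59 to 1.25 for *HIF1A*, −0.61 to 3.05 for *LDHA*, −4.04 to 4.998 for *LRRN4* and −5.96 to 3.56 for *BNC1* (the lowest without CF replicate 2), from −3.31 to 0.31 for *SDS* (the highest without CF replicate 1), and from −3.70 to 0.20 for *GPNMB* and −2.94 to 0.046 for *TSKS* (the highest without WT replicate 2). *SFTPC* lay from −1.51 without CF replicate 1 to 0.62 without CF replicate 2, and at 0.030 with the replicate block. The cause was not tested. With 2 animals a group, the simulated 2-fold changes were mostly not called. Fewer genes changed in the simulation than were called in the data, so its rate does not carry over. A gene that was not called may still differ by that size.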
